A study of Mus musculus with 45 samples.

Results

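The mitochondrially encoded genes are the 37 genes whose symbol starts with mt- among the 33924 genes listed in each RNA-seq table of this study. They comprise 13 protein genes, 2 rRNA genes and 22 tRNA genes, and all 37 are listed in both tables. Membership follows from the symbol alone. Of the 37, 23 varied among the 12 samples of the ΔPG table and 24 among the 12 samples of the ΔG table, and the others were listed at 0 in every sample.

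The samples are mouse embryonic stem cells (ESCs) grown with LIF, in which the locus of the long noncoding RNA 5430416N02Rik was replaced by a selection cassette. In ΔPG cells the promoter and the gene body were replaced by PGK-puro, and in ΔG cells the gene body alone was replaced by GFP-IRES-Puro. Each line was measured as heterozygous and as homozygous cells, in 2 states: undifferentiated with DMSO (ES), or after 48 h in retinoic acid (RA) at 2 µM. There are 8 groups of 3 biological replicates, 24 samples in all. No unedited cells are in these tables, so the heterozygous cells are the reference and every sample carries a cassette. The cells descend from picked colonies, and the sources used here do not say which clone was sequenced, so clone and genotype cannot be told apart. The values are rlog values, which are read counts normalized and moved to a log2 scale with shrinkage of low counts, and the depth per sample is unknown.

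Mitochondria keep a small circular chromosome of their own, whose protein genes all encode subunits of the respiratory chain and of ATP synthase. Both strands are transcribed as long precursors, from which the tRNAs that lie between most of the other genes are cut out, so that neighbouring mRNAs and rRNAs of the heavy-strand transcript are released together and then decay at their own rates. The mitochondrial content and activity of a cell generally change as it differentiates. In bulk samples, fewer mitochondria per cell and less RNA per mitochondrion cannot be told apart.

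By complex, the protein genes encode 7 subunits of complex I, the NADH dehydrogenase (mt-Nd1 to mt-Nd6 and mt-Nd4l), 1 subunit of complex III (mt-Cytb, cytochrome b), 3 subunits of complex IV, the cytochrome c oxidase (mt-Co1 to mt-Co3), and 2 subunits of complex V, the ATP synthase (mt-Atp6 and mt-Atp8). Transcripts of 28 of the 37 genes read along the strand that the genome file gives as plus. The other 9 read in the opposite direction, namely mt-Nd6 and 8 tRNA genes. The rRNA genes mt-Rnr1 (chrM:70-1024) and mt-Rnr2 (chrM:1094-2675) lie ahead of the protein genes in the numbering of the chromosome, followed among others by mt-Nd2 (chrM:3914-4951) and mt-Co1 (chrM:5328-6872), and mt-Cytb (chrM:14145-15288) is the last protein gene. None of the mitochondrial genes has an intron. The counting used strand, so genes on opposite strands were told apart.

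Several genes overlap, and the stretches that belong to 2 genes bear on which gene a read can be counted for. The sequences were read from NCBIM37 (mm9), the build of the files, and are shown in lower case with the shared bases in capitals. The first (chrM:7912-7984, plus strand) is where mt-Atp8 ends inside the start of mt-Atp6, with 43 shared bases. The second (chrM:10152-10188, plus strand) is the junction of mt-Nd4l and mt-Nd4, with 7 shared bases. The third (chrM:13537-13580, plus strand) is where mt-Nd5 meets the end of mt-Nd6, which is read from the other strand, with 14 shared bases.
mt-Atp8/mt-Atp6 overlap: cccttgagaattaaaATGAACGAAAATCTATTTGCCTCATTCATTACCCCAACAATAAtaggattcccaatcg
mt-Nd4l/mt-Nd4 overlap: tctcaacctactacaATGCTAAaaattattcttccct
mt-Nd5/mt-Nd6 overlap: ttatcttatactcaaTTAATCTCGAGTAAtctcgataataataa

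The starts of mt-Nd2 (chrM:3914-3973) and mt-Co1 (chrM:5328-5387), both on the plus strand, are shown because mt-Nd2, the lower of these 2 mRNAs, gained on mt-Co1 under RA in all 4 cell populations, with the start codon in capitals. The tRNA genes mt-Tp (chrM:15356-15422, minus strand) and mt-Tt (chrM:15289-15355, plus strand) are shown whole because they hold the largest differences among the tRNA genes of ΔPG cells. They lie side by side on opposite strands and are shorter than a sequenced read.
mt-Nd2: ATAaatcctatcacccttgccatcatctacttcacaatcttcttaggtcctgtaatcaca
mt-Co1: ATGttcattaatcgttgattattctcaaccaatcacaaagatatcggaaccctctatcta
mt-Tp: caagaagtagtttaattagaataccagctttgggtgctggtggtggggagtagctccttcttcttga
mt-Tt: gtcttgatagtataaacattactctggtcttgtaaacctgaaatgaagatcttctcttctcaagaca

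The mitochondrial genes were among the most abundant features of these libraries. mt-Rnr2, the rRNA of the large mitochondrial ribosomal subunit, had the highest rlog value of all genes in each of the 24 samples. As a share of the summed linear values (2 to the power of the rlog value), the mitochondrial genes took 7.77% to 7.81% in heterozygous ΔPG ES samples and 15.1% to 22.4% in the other 21 samples. Most of this share was mt-Rnr2, with 6.51% to 6.53% and 11.8% to 18.2% respectively. The libraries were made from total RNA after rRNA removal, and how much of the mitochondrial rRNA that step took was not measured.

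Levels of different genes were compared per length, as the rlog value minus log2 of the gene length in kb. In heterozygous ΔG ES samples this level per length fell from 18.77 ± 0.05 (SD, n = 3) for mt-Rnr2 and 15.92 ± 0.03 for mt-Rnr1, the rRNA of the small subunit, to 15.43 ± 0.03 for mt-Co1. It was 14.88 ± 0.03 for mt-Co3, 14.32 ± 0.02 for mt-Co2 and 13.28 ± 0.04 for mt-Nd1. The 3 catalytic-core subunits of complex IV were therefore the most abundant mRNAs per length. mt-Cytb followed at 11.76 ± 0.04 and mt-Nd3 at 11.67 ± 0.02, then mt-Nd2 at 10.52 ± 0.05, mt-Atp8 at 10.23 ± 0.11, mt-Nd4 at 10.16 ± 0.02 and mt-Nd5 at 9.92 ± 0.02. mt-Nd6, the protein gene of the other strand, stood lower at 7.95 ± 0.09, and mt-Atp6 lowest at 4.00 ± 0.10. Of these neighbours in the order, mt-Atp8 and mt-Nd4 had overlapping samples, and the samples of all other neighbours were apart. In heterozygous ΔPG ES samples mt-Co1 (13.57 ± 0.01) stood above mt-Rnr1 (13.50 ± 0.01), the reverse of the order in each of the other 7 groups.

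The low level of mt-Atp6 and the 0 of mt-Nd4l coincide with nuclear copies of the mitochondrial chromosome. mm9 holds 7 nuclear stretches with at least 95% identity to the mitochondrial chromosome over at least 200 bases. The longest, chr1:24618374-24623027, matches bases 6390 to 11042 of the mitochondrial chromosome over 4654 bases with 99.936% identity, and holds 11 of the 37 genes in full. It differs by 2 substitutions, A6393T in mt-Co1 and T9461C in mt-Nd3 (positions counted from 1 on the mitochondrial chromosome, its base first), and by 1 added base. Within this copy the annotation has a pair of nuclear protein genes in the same sense: Gm10222 with 297 bases and Gm10925 with 814 bases. An exact match to an annotated nuclear gene exists for 100% of the windows of 100 bases in mt-Nd4l and 99.3% of those in mt-Atp6, against 77.1% in mt-Atp8, 15.0% in mt-Co2 and 0% in mt-Co3, although mt-Co2 and mt-Co3 lie in the copy with 100% of their windows.

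**Figure D1:**
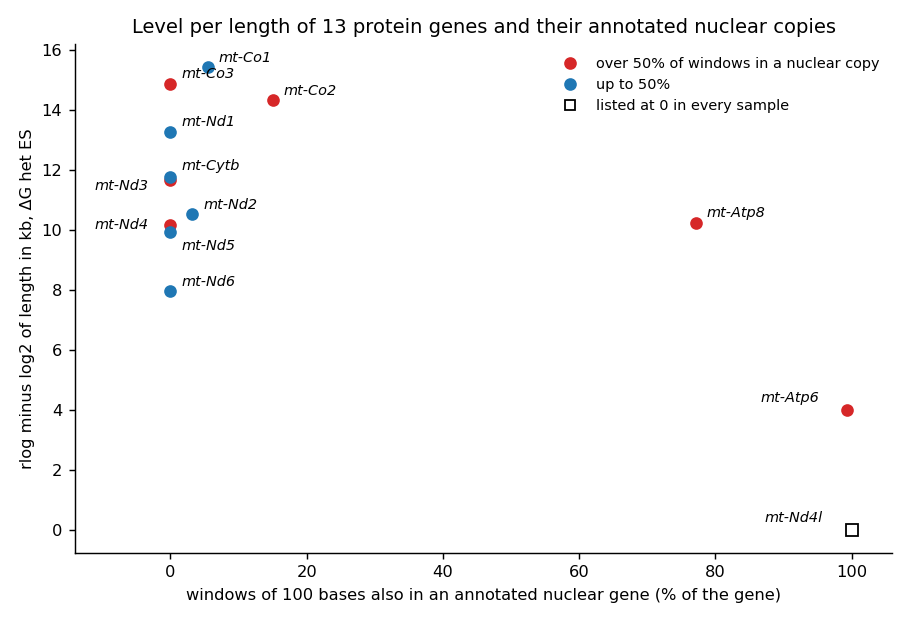
The level per length of the 13 mitochondrial protein genes in heterozygous ΔG ES samples (mean of 3 rlog values minus log2 of the length in kb, vertical axis) is plotted against the percentage of each gene's windows of 100 bases that an annotated nuclear gene also holds. Red points are genes with over 50% of their windows in any nuclear copy, and the 2 genes at the far right are mt-Atp6 at 4.00 and mt-Nd4l, drawn as an open square at 0.

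mt-Nd4l was listed at 0 in all 24 samples, although mt-Nd4, which starts inside it, had rlog values from 8.41 to 10.64. mt-Atp6 ranged from 2.05 to 3.53 while its neighbours mt-Atp8 and mt-Co3 ranged from 4.77 to 8.02 and from 12.32 to 14.55. Gm10925 is the nuclear gene whose bases match mt-Atp6 and, in part, mt-Atp8 (about chrM:7790-8603, with mt-Atp8 at chrM:7766-7969). It was at 7.58, 7.31 and 7.59 in heterozygous ΔPG ES samples and at 9.82, 9.69 and 9.92 in the homozygous ones. It was called higher with a difference of 2.32 ± 0.09 (SE, by limma, Benjamini-Hochberg adjusted p = 1.63e-06). The mRNA levels of mt-Atp6 and mt-Nd4l therefore cannot be read from these tables, and that of mt-Atp8 may be read only in part. Whether the authors' read assignment set the values of these genes was not tested. On chromosome 2, Gm13340 is a pseudogene of 1545 bases in a copy with 97.4% identity that spans mt-Co1. It was at 8.82, 8.81 and 8.85 in heterozygous and at 10.32, 10.23 and 10.28 in homozygous ΔPG ES samples (1.45 ± 0.03, adjusted p = 1.19e-07).

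The first comparison asked whether losing both copies of the promoter and gene body went with another level of the mitochondrial genes in undifferentiated cells. All 12 varying protein genes and both rRNA genes were higher in homozygous than in heterozygous ΔPG ES samples, as were 2 of 9 varying tRNA genes, so that 16 of 23 tested members were called higher and none lower. Here and below, mt-Atp6 is counted and ranked by its listed value, which cannot be read as the level of its mRNA. The background for such calls was 6.87% of the 21979 genes tested (called means an adjusted p under 0.1 and a log2 difference over 0.5 in either direction). The median difference was 2.01 over the protein genes and 1.58 over all 23 members, against 0.00 over all genes.

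**Figure D2:**
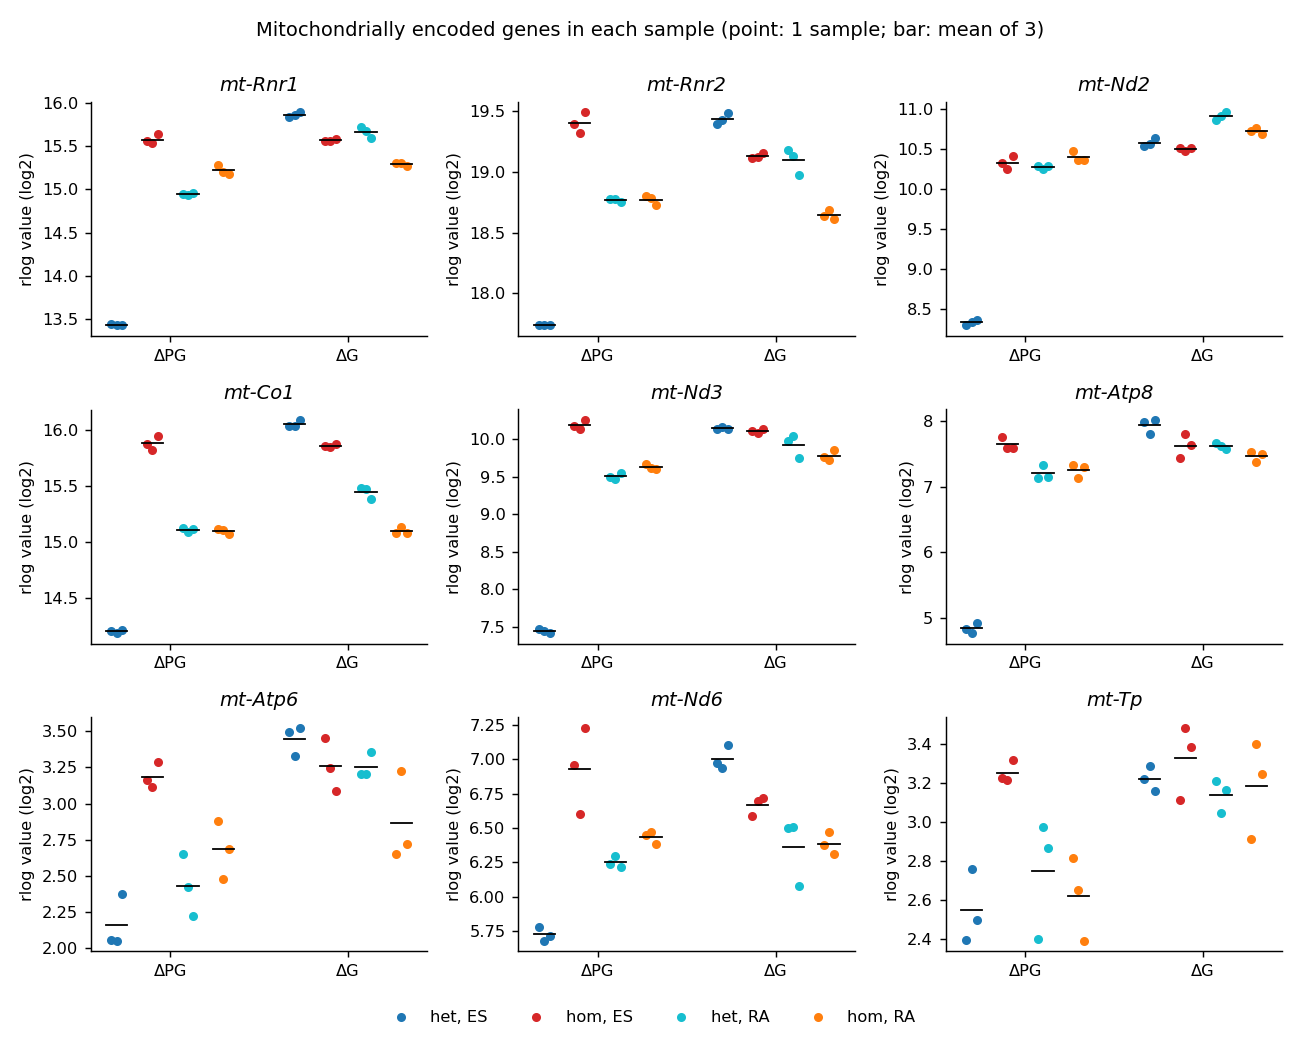
The rlog value (log2 scale, vertical axis) of 9 mitochondrial genes is plotted for each of the 24 samples, with ΔPG samples on the left and ΔG samples on the right of each panel and a bar at the mean of 3 samples. In ΔPG cells the heterozygous ES samples (blue) sit below the homozygous ES samples (red) in all 9 panels. In ΔG cells the ES groups lie closer together. There the homozygous ES samples sit below the heterozygous ones for mt-Rnr1, mt-Rnr2, mt-Nd2, mt-Co1, mt-Atp8 and mt-Nd6, and overlap them for mt-Nd3, mt-Atp6 and mt-Tp.

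mt-Rnr1 was at 13.44, 13.44 and 13.43 in heterozygous and at 15.55, 15.53 and 15.64 in homozygous ΔPG ES samples. Its groups were apart, with a difference of 2.14 ± 0.03 (SE; limma adjusted p = 9.53e-09), which is 4.39-fold. mt-Rnr2 was at 17.74 in each heterozygous sample and at 19.39, 19.32 and 19.49 in the homozygous samples. It rose less, by 1.66 ± 0.04 (adjusted p = 1.19e-07), so the values of the 2 rRNAs of the same ribosome did not move by the same amount. The authors removed duplicate reads before counting, and what this did to the value of mt-Rnr2, the most abundant gene, was not tested.

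The 2 protein genes with the largest differences were mt-Atp8 and mt-Nd3, which are the shortest ones with values. mt-Atp8, a small membrane subunit of ATP synthase, was at 4.83, 4.77 and 4.92 in heterozygous and at 7.76, 7.59 and 7.60 in homozygous samples, a difference of 2.81 ± 0.07 or 7.01-fold (adjusted p = 3.49e-07). An annotated nuclear gene holds 77.1% of its windows of 100 bases, and the part this had in its values was not tested. mt-Nd3 was at 7.47, 7.45 and 7.42 against 10.17, 10.14 and 10.26, a difference of 2.75 ± 0.04 or 6.71-fold (adjusted p = 2.21e-08). No sample of either gene came near the other group.

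The smallest differences were those of mt-Atp6 and mt-Nd6. mt-Atp6 was at 2.05, 2.05 and 2.37 in heterozygous and at 3.16, 3.11 and 3.29 in homozygous samples (difference 1.03 ± 0.14, adjusted p = 0.000697). mt-Nd6 was at 5.78, 5.68 and 5.72 against 6.96, 6.60 and 7.23 (difference 1.20 ± 0.14, adjusted p = 0.000395), and its homozygous samples were spread more widely than those of the other protein genes. The remaining 8 protein genes differed by 1.58 (mt-Nd5) to 2.15 (mt-Nd1). By complex, the medians were 2.01 for the 6 tested genes of complex I and 2.07 for complex IV, and mt-Cytb of complex III differed by 1.85. The median of 1.92 for complex V is that of mt-Atp6 and mt-Atp8 alone, so it cannot be read as a level of that complex's mRNAs. Across 11 protein genes, with mt-Atp6 left out and mt-Atp8 kept, the difference had a Spearman rho of -0.61 with gene length and 0.01 with the mean level. This is a description over genes that share libraries and precursors.

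**Figure D3:**
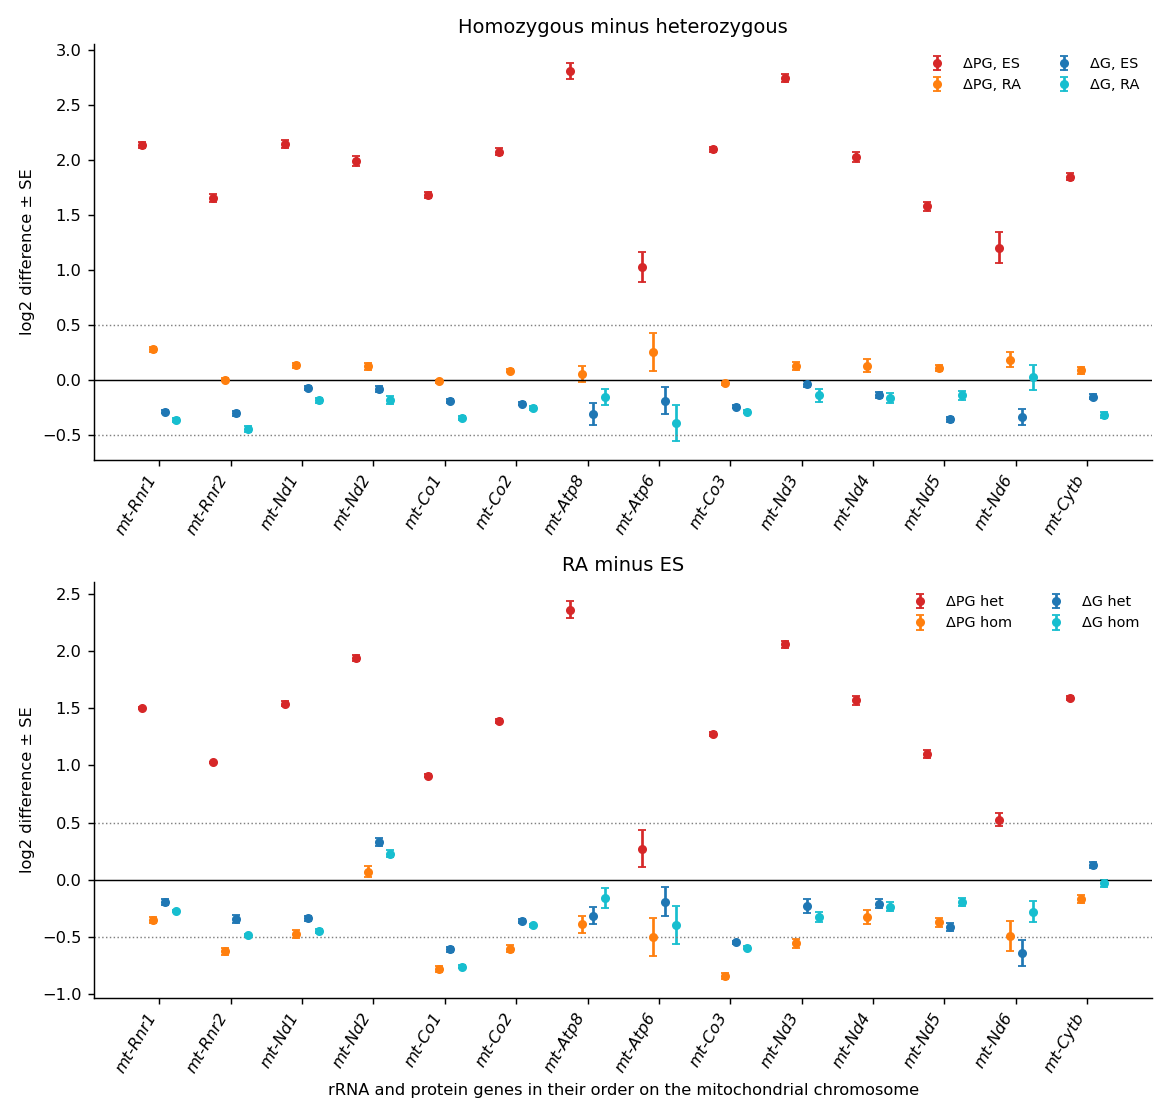
The log2 difference ± SE of 14 rRNA and protein genes is plotted in their order on the mitochondrial chromosome, for homozygous minus heterozygous samples (upper panel) and RA minus ES samples (lower panel), with dotted lines at the limit of 0.5 in either direction. The ΔPG ES values lie between 1.03 and 2.81 in the upper panel and the other 3 comparisons there between -0.45 and 0.28, while in the lower panel only heterozygous ΔPG cells have values above 0.5.

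The GC content of a gene moved with this comparison. Over the 11891 nuclear genes whose mean over the table reached 3, the difference between homozygous and heterozygous ΔPG ES samples had a Pearson r of -0.70 with exonic GC content, against 0.00 in RA-treated ΔPG cells and 0.00 in ΔG ES cells. The 14 rRNA and protein genes with values have 31.9% to 39.9% GC. The 569 nuclear genes of that range had a median difference of 0.70, with a range of 0.17 to 1.36 from the 5th to the 95th percentile. Of the 14, mt-Atp6 (1.03) and mt-Nd6 (1.20) lay within that range. The lowest of the others was mt-Nd5 at 1.58, which 15 of the nuclear genes (2.64%) reached. After the trend with GC content was taken off in each sample, 12 of the 14 genes were still called higher, against 4.56% of 11914 genes tested that way.

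**Figure D4:**
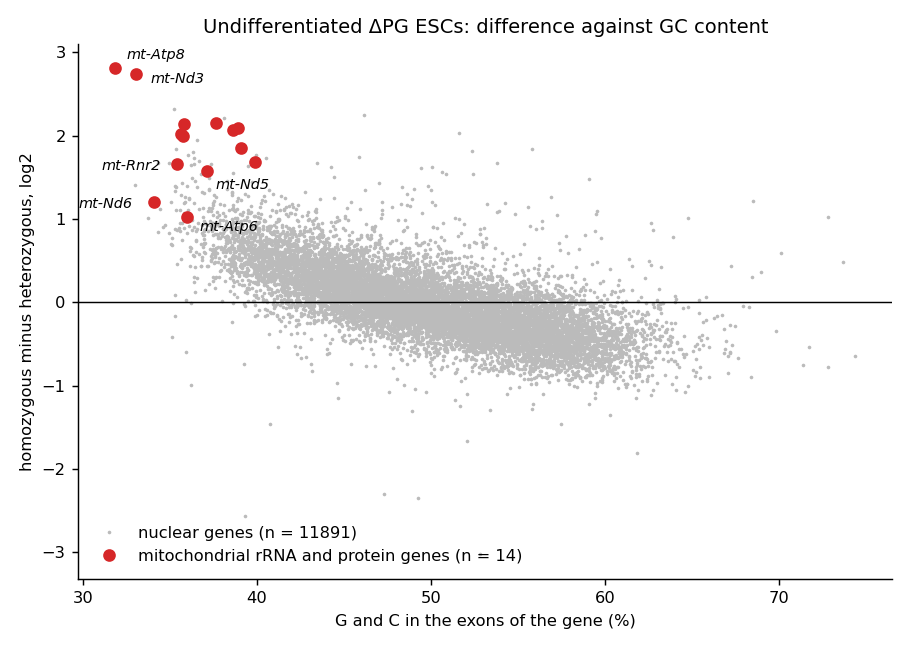
The log2 difference of homozygous minus heterozygous ΔPG samples in the ES state (vertical axis) is plotted against the GC content of each gene's exons in percent, for 11891 nuclear genes whose mean over the table reached 3 (grey points) and 14 mitochondrial rRNA and protein genes (red). Nuclear differences fall as GC content rises, and most red points lie above the grey points of the same GC content.

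The sizes after that step were smaller. mt-Rnr1 differed by 1.26, mt-Rnr2 by 0.75, mt-Co1 by 1.10, mt-Nd3 by 1.66 and mt-Atp8 by 1.72, with a median of 1.17 over the 14 genes against 2.01 before. mt-Atp6 at 0.16 and mt-Nd6 at 0.20 were no longer called. Few nuclear genes have a GC content as low as that of mt-Atp8 and mt-Nd3, so the trend rests on few genes there. The part that the GC trend, RNA quality or library preparation had in the difference was not tested. With the trend taken off, 5 tRNA genes with values near or below 0 were called lower.

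In RA-treated ΔPG cells limma called 0 of the 23 members between homozygous and heterozygous samples, where 0.846% of all genes were called, and 8 had an unadjusted p under 0.05. Here and below, the share of all genes under that unadjusted limit was not counted. Differences of the protein genes lay between -0.03 and 0.25. With the adjusted p alone, 3 of the 23 passed as higher (2.36% of all genes did): mt-Rnr1, mt-Nd1 and mt-Co2. mt-Rnr1 was at 14.94, 14.93 and 14.95 in heterozygous and at 15.28, 15.20 and 15.18 in homozygous samples (0.28 ± 0.02, adjusted p = 8.22e-05). mt-Rnr2 was at 18.78, 18.77 and 18.75 against 18.80, 18.78 and 18.73, which overlap (0.00 ± 0.01, adjusted p = 0.955). The homozygous samples of 9 of the 23 members all lay above the heterozygous ones, against 9.93% of all genes.

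Among the protein genes of RA-treated ΔPG cells, mt-Atp6 differed most by value, at 2.65, 2.42 and 2.22 in heterozygous and 2.88, 2.48 and 2.69 in homozygous samples, with overlapping groups. mt-Nd6 followed at 6.24, 6.30 and 6.22 against 6.45, 6.47 and 6.38. mt-Co1 at 15.12, 15.09 and 15.12 against 15.11, 15.10 and 15.07, and mt-Co3 at 13.61, 13.58 and 13.64 against 13.62, 13.58 and 13.56, differed least, and both overlapped.

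In ΔG cells, which keep the promoter, limma called 0 of 24 tested members in ES samples (0.984% of all 22048 genes were called) and 0 of 24 in RA-treated samples (2.14% of all genes). An unadjusted p under 0.05 was found for 13 and 12 of them. The rRNA and protein genes leaned downwards all the same: in ES samples all 14 were lower by value in homozygous cells. The protein gene median was -0.19, against -0.006 over all genes. Of 10 tRNA genes 9 were also lower by value, but with a median of -0.04, and mt-Ta, mt-Ti and mt-Tm were at -0.006. All homozygous samples lay below all heterozygous ones for 13 members in ES cells (9.0% of all genes) and for 11 members in RA-treated cells (11.7% of all genes). With the adjusted p alone, 9 of the 24 members passed as lower in ES cells (2.83% of all genes) and 10 in RA-treated cells (6.18%).

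mt-Rnr1 was at 15.83, 15.86 and 15.89 in heterozygous and at 15.56, 15.56 and 15.58 in homozygous ΔG ES samples (-0.29 ± 0.01, limma adjusted p = 0.000147). mt-Rnr2 was at 19.39, 19.43 and 19.49 against 19.11, 19.12 and 19.15 (-0.31 ± 0.02, adjusted p = 0.000615). Both rRNAs were thus lower by a small amount in the homozygous cells, with no overlap. In RA-treated ΔG cells the differences were -0.37 ± 0.02 for mt-Rnr1 and -0.45 ± 0.03 for mt-Rnr2, from 15.71, 15.68 and 15.59 to 15.30, 15.30 and 15.27 and from 19.17, 19.13 and 18.97 to 18.63, 18.68 and 18.61.

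The protein genes of ΔG ES cells differed most in mt-Nd5, at 10.76, 10.79 and 10.81 in heterozygous and 10.41, 10.40 and 10.47 in homozygous samples (-0.36 ± 0.03). mt-Nd6 followed at 6.97, 6.93 and 7.11 against 6.59, 6.70 and 6.72. The smallest differences were those of mt-Nd3 (10.14, 10.17 and 10.14 against 10.11, 10.08 and 10.14, which overlap) and mt-Nd1 (13.17, 13.23 and 13.24 against 13.13, 13.12 and 13.16). In RA-treated ΔG cells the largest were mt-Atp6, at 3.20, 3.21 and 3.36 against 2.65, 3.23 and 2.72, and mt-Co1, at 15.48, 15.47 and 15.38 against 15.08, 15.13 and 15.08 (-0.34 ± 0.02). mt-Nd6, at 6.50, 6.51 and 6.08 against 6.38, 6.47 and 6.31, and mt-Nd3, at 9.97, 10.04 and 9.75 against 9.76, 9.73 and 9.86, differed least, and both overlapped.

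After RA, mitochondrial genes rose in heterozygous ΔPG cells, some fell in homozygous ΔPG cells, and few were called in ΔG cells. In heterozygous ΔPG cells 13 of 23 members were called higher after RA and none lower, where 18.0% of all genes were called higher. These were both rRNA genes and 11 of 12 protein genes. In homozygous ΔPG cells 7 of 23 were called lower (11.3% of all genes) and none higher. In ΔG cells 3 of 24 were called lower in heterozygous (11.7% of all genes) and 2 of 24 in homozygous cells (12.1%), with none higher, which is near the share of all genes. The calls in ΔG cells depended on the GC trend. With it taken off, 2 members were called higher and 0 lower in heterozygous cells. Of the 12006 genes tested that way, 2890 were called higher and 2552 lower. In homozygous cells 4 members were called higher and 1 lower, against 2945 and 2619 genes. Those called higher were mt-Nd2 in both genotypes and tRNA genes with values below 0: mt-Ti in both, mt-Ta and mt-Ty in homozygous cells. The rise in heterozygous ΔPG cells uses the same 3 ES samples as the comparison of ΔPG ES cells above, so the 2 results are not independent.

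In heterozygous ΔPG cells mt-Rnr1 went from 13.44, 13.44 and 13.43 to 14.94, 14.93 and 14.95 after RA (1.51 ± 0.01, limma adjusted p = 2.33e-10), and mt-Rnr2 from 17.74 in each to 18.78, 18.77 and 18.75 (1.03 ± 0.01). mt-Atp8 rose from 4.83, 4.77 and 4.92 to 7.13, 7.33 and 7.15 (2.37 ± 0.08) and mt-Nd3 from 7.47, 7.45 and 7.42 to 9.50, 9.47 and 9.55 (2.06 ± 0.03). mt-Nd6 rose least among the called genes, from 5.78, 5.68 and 5.72 to 6.24, 6.30 and 6.22 (0.52 ± 0.06, adjusted p = 0.000156). mt-Atp6 was not called, at 2.65, 2.42 and 2.22 after RA (0.27 ± 0.16, adjusted p = 0.212). With the GC trend taken off, 10 of the 14 rRNA and protein genes were called higher (24.1% of the genes tested that way), and mt-Rnr2 at 0.47, mt-Co1 at 0.49, mt-Nd6 at -0.076 and mt-Atp6 at -0.27 were not.

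In homozygous ΔPG cells the genes called lower were the 3 of complex IV, mt-Nd3, mt-Atp6, mt-Rnr2 and mt-Tp. mt-Co3 fell from 14.42, 14.37 and 14.49 to 13.62, 13.58 and 13.56 (-0.84 ± 0.03, limma adjusted p = 3.83e-10) and mt-Co1 from 15.88, 15.82 and 15.95 to 15.11, 15.10 and 15.07 (-0.78 ± 0.02, adjusted p = 5.43e-10). mt-Rnr2 fell to the 18.80, 18.78 and 18.73 given above (-0.63 ± 0.03), while mt-Rnr1 reached 15.28, 15.20 and 15.18 and missed the size limit (-0.35 ± 0.03). The smallest differences were those of mt-Nd2, at 10.32, 10.24 and 10.41 in ES and 10.48, 10.36 and 10.35 in RA samples, which overlap (0.07 ± 0.05, adjusted p = 0.260), and mt-Cytb, at 11.89, 11.92 and 12.01 against 11.83, 11.76 and 11.71 (-0.17 ± 0.04). mt-Nd6, from 6.96, 6.60 and 7.23 to 6.45, 6.47 and 6.38, lay just under the size limit. The call of mt-Atp6 (-0.50 ± 0.17) was lost without RA replicate 2 (-0.40) or without ES replicate 3 (-0.45). With the GC trend taken off, mt-Co1 (-0.63), mt-Co3 (-0.66) and mt-Tp (-0.59) were the 3 members still called lower.

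In heterozygous ΔG cells the called genes were mt-Nd6 (6.97, 6.93 and 7.11 in ES and 6.50, 6.51 and 6.08 in RA samples, -0.64 ± 0.11), mt-Co1 (16.03, 16.04 and 16.09 against 15.48, 15.47 and 15.38, -0.61 ± 0.02) and mt-Co3 (14.51, 14.51 and 14.55 against 13.98, 13.99 and 13.95, -0.55 ± 0.02). In homozygous ΔG cells they were mt-Co1 (15.86, 15.84 and 15.88 against 15.08, 15.13 and 15.08, -0.76 ± 0.01) and mt-Co3 (14.29, 14.26 and 14.29 against 13.69, 13.70 and 13.67, -0.60 ± 0.01). With the GC trend taken off, mt-Co1 was at -0.46 in heterozygous and -0.58 in homozygous ΔG cells, mt-Co3 at -0.36 and -0.37, and mt-Nd6 at -0.27 in heterozygous cells, and of these 5 values that of mt-Co1 in homozygous cells was still called. Without RA replicate 3, mt-Nd6 was at -0.50 in heterozygous ΔG cells and was not called.

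The rRNAs of ΔG cells were lower by value after RA, short of the size limit. mt-Rnr1 differed by -0.20 ± 0.02 in heterozygous and -0.28 ± 0.01 in homozygous cells, and mt-Rnr2 by -0.34 ± 0.04 and -0.49 ± 0.01, with no overlap between ES and RA samples. After the GC trend was taken off, mt-Rnr1 turned to 0.11 and 0.088, and mt-Rnr2 was at -0.023 and -0.10. mt-Nd2 went the other way, from 10.54, 10.56 and 10.63 to 10.86, 10.91 and 10.95 in heterozygous (0.33 ± 0.04) and from 10.51, 10.48 and 10.51 to 10.72, 10.75 and 10.69 in homozygous ΔG cells (0.23 ± 0.03), and with the GC trend taken off it was called higher in both (0.64 and 0.59). In heterozygous cells mt-Cytb went from 11.92, 11.96 and 11.999 to 12.10, 12.10 and 12.08 (0.13 ± 0.03), and in homozygous cells from 11.81, 11.79 and 11.82 to 11.74, 11.85 and 11.72, which overlap. mt-Atp6 in heterozygous cells (3.49, 3.33 and 3.53 against 3.20, 3.21 and 3.36) and mt-Atp8 in homozygous cells (7.44, 7.81 and 7.64 against 7.54, 7.37 and 7.50) also differed little, and both overlapped.

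By complex, the RA differences of complex IV had a median of -0.78 in homozygous ΔPG cells, -0.55 in heterozygous and -0.60 in homozygous ΔG cells, and those of complex I had medians of -0.42, -0.28 and -0.26. Once the GC trend was removed, the medians were -0.63, -0.36 and -0.37 for complex IV, and -0.13, -0.00094 and 0.15 for complex I, so that the direction of complex I turned in homozygous ΔG cells. In heterozygous ΔPG cells the medians were 1.28 for complex IV and 1.56 for complex I.

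A difference between 2 mitochondrial mRNAs of the same sample does not depend on how samples are scaled against each other, and it was examined after the values above had been seen, so no test is given for it. The rlog value of mt-Nd2 minus that of mt-Co1 was -5.91 to -5.84 in heterozygous ΔPG ES samples and -4.84 to -4.83 after RA, a change of 1.03 ± 0.02 (SE). In homozygous ΔPG cells it went from between -5.58 and -5.53 to between -4.74 and -4.64 (0.86 ± 0.03). In heterozygous ΔG cells it went from between -5.50 and -5.45 to between -4.61 and -4.43 (0.94 ± 0.06), and in homozygous ΔG cells from between -5.37 and -5.35 to between -4.39 and -4.36 (0.99 ± 0.01). In all 4 populations every RA sample lay above every ES sample, although the level of both genes rose in heterozygous ΔPG cells and that of mt-Co1 fell in the others. After the GC trend was taken off, the 4 changes were 0.90, 1.00, 1.10 and 1.17.

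**Figure D5:**
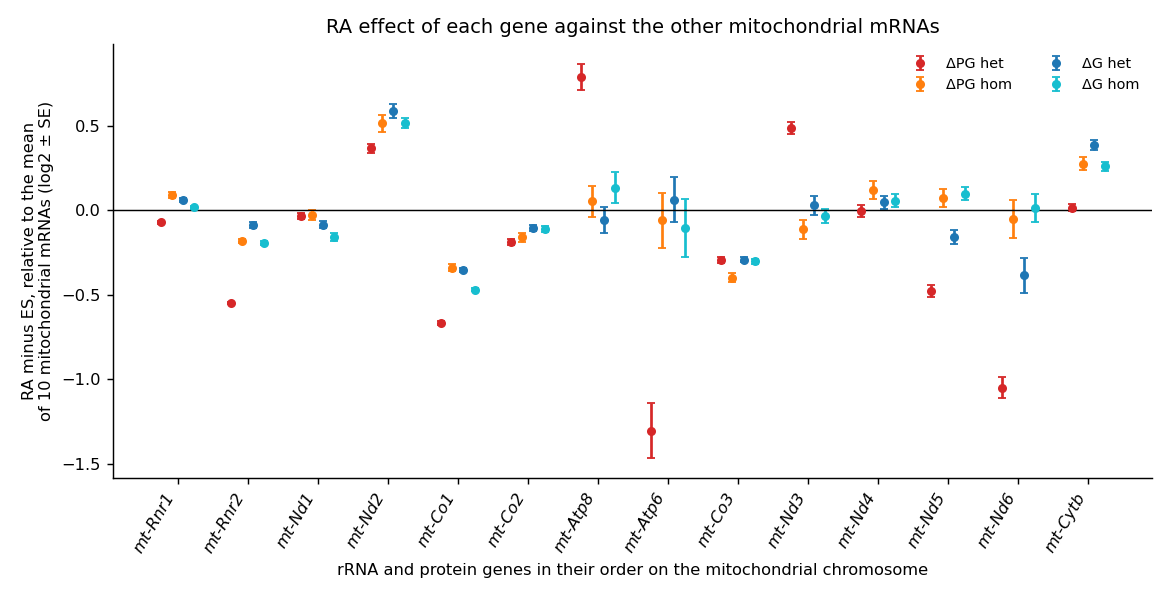
The RA minus ES difference of each gene, after the mean of 10 mitochondrial mRNAs was taken off in every sample (log2 ± SE, vertical axis), is plotted in chromosome order for the 4 combinations of line and genotype. mt-Nd2 lies between 0.37 and 0.59 and mt-Co1 between -0.66 and -0.34 in all 4, while the heterozygous ΔPG values of mt-Atp8, mt-Nd3, mt-Atp6 and mt-Nd6 lie away from the other 3.

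The plot of RA effects against the mean of 10 mitochondrial mRNAs shows the wider pattern. These are mt-Nd1, mt-Nd2, mt-Co1, mt-Co2, mt-Atp8, mt-Co3, mt-Nd3, mt-Nd4, mt-Nd5 and mt-Cytb. Each of them is part of the mean it is set against, so their values balance around 0 by construction. Relative to the mean of 10 mitochondrial mRNAs, the RA differences of mt-Nd2 were 0.37 to 0.59 and those of mt-Cytb 0.016 to 0.39, while mt-Co1 was at -0.66 to -0.34, mt-Co3 at -0.40 to -0.29 and mt-Co2 at -0.19 to -0.10. mt-Nd1, which lies just before mt-Nd2 on the same strand, stayed between -0.16 and -0.028, and mt-Nd2 minus mt-Nd1 changed by 0.40 ± 0.02, 0.54 ± 0.01, 0.67 ± 0.04 and 0.68 ± 0.01 in the 4 populations. The gap between the values of the rRNAs narrowed, and the part of duplicate removal in this was not tested. mt-Rnr1 minus mt-Rnr2, which is below 0 in every sample, changed by 0.48 ± 0.01 in heterozygous and 0.27 ± 0.02 in homozygous ΔPG cells. In ΔG cells it changed by 0.15 ± 0.03 and 0.21 ± 0.02, and ES and RA samples did not overlap in any of the 4.

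The difference between the RA effects of homozygous and heterozygous cells was tested as an interaction over all 12 samples of a table. In ΔPG cells 17 of 23 members were called, all lower in homozygous cells (7.19% of all genes were), with a protein gene median of -1.89 and values from -2.76 ± 0.11 (mt-Atp8) to -0.62 ± 0.18 (mt-Tq). mt-Rnr1 was at -1.86 ± 0.04 and mt-Rnr2 at -1.66 ± 0.04. With the GC trend taken off, 12 of the 14 rRNA and protein genes were still called lower (5.83% of the genes tested that way). In ΔG cells limma called 0 of 24 members, where 2.38% of all genes were called and 10 members had an unadjusted p under 0.05, and the values lay between -0.20 (mt-Atp6) and 0.36 (mt-Nd6).

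The tRNA genes were barely measured. In ΔPG cells 13 of 22 and in ΔG cells 12 of 22 were listed at 0 in every sample, and the remaining ones had rlog values from -2.22 to 3.32 and from -2.26 to 3.48. Only mt-Tp (proline), mt-Tq (glutamine) and mt-Tt (threonine) were above 0 in every sample. mt-Tp was at 2.40, 2.76 and 2.50 in heterozygous and 3.23, 3.22 and 3.32 in homozygous ΔPG ES samples (0.70 ± 0.13, limma adjusted p = 0.00466), and mt-Tt at 1.15, 1.03 and 1.05 against 1.53, 1.57 and 1.73 (0.53 ± 0.10, adjusted p = 0.00353). Without homozygous replicate 3, mt-Tt was at 0.47 and was not called. Both calls were lost after the GC trend was taken off, with mt-Tp at 0.46 and mt-Tt turned to -0.46. In homozygous ΔPG cells mt-Tp fell with RA to 2.81, 2.65 and 2.39 (-0.63 ± 0.17, adjusted p = 0.00803). mt-Tq, at 1.31, 1.20 and 1.37 against 1.85, 1.48 and 1.79 in ΔPG ES cells, was not called (0.42 ± 0.13). In RA-treated ΔPG cells mt-Tp was at 2.40, 2.98 and 2.87 in heterozygous samples, mt-Tt at 1.54, 1.28 and 1.39 against 1.14, 1.32 and 1.41, and mt-Tq at 1.34, 1.34 and 1.63 against 1.21, 1.24 and 1.26.

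In ΔG cells the largest differences were those of mt-Ts1 (serine), at -0.44, -0.39 and -0.37 in heterozygous ES samples against -0.79, -0.58 and -0.55 in homozygous ES and -0.79, -0.79 and -0.74 in heterozygous RA samples. mt-Tp in ΔG cells lay between 2.91 and 3.48 with overlapping groups in every comparison. Apart from mt-Ts1 in ΔG cells and mt-Tp, mt-Tq and mt-Tt in ΔPG cells, the tRNA gene farthest from 0 was mt-Te in RA-treated ΔG cells at -0.18.

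Nuclear genes that serve the same organelle were read from the same fits. Of 90 tested nuclear genes of the respiratory chain and ATP synthase, 21 were called higher and 2 lower in homozygous ΔPG ES cells (background 6.87% and 6.29%), with a median of 0.14. After RA, 41 were called lower in heterozygous and 57 in homozygous ΔPG cells (backgrounds 13.6% and 11.3%), and 50 and 63 in heterozygous and homozygous ΔG cells (11.7% and 12.1%), with medians of -0.46, -0.57, -0.54 and -0.63. In heterozygous ΔPG cells, 41 of the 90 nuclear genes were called lower and 1 higher. There 11 of 12 mitochondrial protein genes, mt-Atp8 among them, were called higher. With the GC trend taken off, 39 of 88 nuclear genes were called lower and 0 higher, and 9 mitochondrial protein genes higher. The nuclear genes were picked by the start of the symbol, so they need not all encode subunits.

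Of 49 nuclear genes of mitochondrial transcription, RNA processing, decay and DNA upkeep, 8 were called higher and 8 lower in homozygous ΔPG ES cells (6.87% and 6.29% of all genes), with a median of -0.04. Among them Ssbp1, the mitochondrial single-strand DNA-binding protein, was higher by 1.08 ± 0.07 (limma adjusted p = 2.36e-05), Grsf1, which binds G-rich mitochondrial RNA, by 0.74 ± 0.03, and Pnpt1, the mitochondrial exoribonuclease, by 0.70 ± 0.05. Polrmt, the mitochondrial RNA polymerase, was called lower at -0.64 ± 0.05. Esrra had the lowest value of the list, at -0.99 ± 0.12. After removal of the GC trend, 2 of the 47 genes tested that way were called higher, Ssbp1 (0.58) and Grsf1 (0.80), and 1 lower, Esrra (-0.50). Pnpt1 (0.06) and Polrmt (-0.17) were no longer called. Between genotypes in RA-treated ΔPG cells the 49 differences lay between -0.27 and 0.37, and in ΔG cells between -0.38 and 0.43 in ES and between -0.46 and 0.28 in RA-treated samples.

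After RA, 20 of the 49 were called lower in heterozygous and 16 in homozygous ΔPG cells (13.6% and 11.3% of all genes), and 18 and 14 in heterozygous and homozygous ΔG cells (11.7% and 12.1%), with medians of -0.44, -0.30, -0.31 and -0.33. Lrpprc, which stabilizes mitochondrial mRNAs, differed by -0.72 ± 0.04 in heterozygous and -1.04 ± 0.06 in homozygous ΔPG cells, and by -1.13 ± 0.05 in both genotypes of ΔG cells. Grsf1 differed by -0.82 ± 0.04, -1.46 ± 0.05, -1.66 ± 0.07 and -1.86 ± 0.05 in the same order. Both were called lower in all 4 comparisons.

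As a check of the labels, 5430416N02Rik was at 3.80 to 4.62 in heterozygous and 2.12 to 2.66 in homozygous ΔPG samples, and at 5.50 to 5.64 and 2.63 to 3.08 in ΔG samples. All 9 pluripotency markers were called lower after RA and all 6 markers of the RA response higher, in each of the 4 comparisons. The 7 markers of extraembryonic endoderm also rose after RA in all 4, and 5 of them were lower in homozygous than in heterozygous RA-treated ΔPG cells, with a median of -0.60, as were 3 of them in ΔG cells. In ES cells their summed level (log2) was also lower in homozygous samples, at 9.19 to 9.25 against 9.63 to 9.70 in ΔPG and 8.74 to 8.89 against 9.17 to 9.25 in ΔG cells. Lama1 was the highest of the 7 in these samples, with means of 9.25 in heterozygous and 8.82 in homozygous ΔPG ES samples. Gene by gene, the median was -0.06 in both lines, with values from -0.73 to 0.21 in ΔPG and from -0.46 to 0.25 in ΔG cells. Of the 7, 1 was called lower in ΔPG ES cells and 0 in ΔG ES cells. The summed level of the pluripotency markers was 13.91 to 13.93 in homozygous and 14.10 to 14.14 in heterozygous ΔPG ES cells, with 1 of 9 called lower. Of 6 fibroblast markers, 5, 5, 5 and 4 were called higher after RA in heterozygous and homozygous ΔPG and heterozygous and homozygous ΔG cells. In each of the 2 ΔPG comparisons 1 was called lower, and the lowest values were -0.67 in heterozygous and -0.53 in homozygous cells. Their summed level (log2) was 5.19 to 5.81 in ES and 8.65 to 9.65 in RA samples. The part of other cell types in the genotype and RA differences of the mitochondrial genes was not tested.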

How the data were processed

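RNA-seq was analysed in 24 samples. Per the labels and the methods, libraries came from total RNA after rRNA removal with a strand-specific kit. The authors aligned reads to mm9 with TopHat2 2.1.0 and GENCODE models, removed duplicates with Picard, counted reads by strand with HTSeq 0.6.0 and applied DESeq2 1.14.1. The deposited values are rlog values (log2 scale). Each line has its own table, normalized apart from the other. They hold no counts, so no count model could be used, no counting interval is given, and no test crosses the tables. How reads with several matches were treated is not given in the sources used here. The 4C-seq files were not used, and the RIP-seq and capture-C samples were not analysed here.

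Comparisons were fitted in R 4.3.3 with limma 3.58.1, using eBayes and its mean-variance trend, on all genes that vary in the table, 21979 in ΔPG and 22048 in ΔG, with Benjamini-Hochberg adjustment over all of them. Genes were called at an adjusted p under 0.1 and a log2 difference over 0.5 in either direction. The fit was tested on simulated data. Nuclear copies were found with BLAST 2.17.0 in NCBIM37. The GC trend was a lowess curve (span 0.3) through the nuclear genes with a mean of at least 3, taken off each sample. Alternatives were other limits, scalings, trends and sample sets.

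The mitochondrial genes as a subject, and the gene lists, were chosen with earlier results of these data known. Values in every sample were given for both rRNA genes, mt-Nd6 and, in each comparison, the protein and tRNA genes with the largest and smallest differences. The tRNA genes near 0 are given by range. No correlation between members over samples is given, since the samples fall into groups. Nuclear genes named hold a copy of a mitochondrial gene or were called in the mitochondrial expression list. The replicates are biological replicates per the methods.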

Additional observations from a re-analysis of the deposited data

Results flagged for a closer look

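The effect of RA differed between homozygous and heterozygous ΔPG cells for 17 members by the limma interaction test, always downwards. In homozygous minus heterozygous terms, the log2 differences of the rRNA genes were -1.86 for mt-Rnr1 and -1.66 for mt-Rnr2. Those of complex I were -2.02 for mt-Nd1, -1.87 for mt-Nd2, -2.62 for mt-Nd3, -1.90 for mt-Nd4, -1.47 for mt-Nd5 and -1.02 for mt-Nd6. Those of complexes III and IV were -1.69 for mt-Co1, -1.99 for mt-Co2, -2.12 for mt-Co3 and -1.76 for mt-Cytb, and those of complex V were -0.78 for mt-Atp6 and -2.76 for mt-Atp8. The tRNA genes were at -0.83 for mt-Tp, -0.62 for mt-Tq and -0.65 for mt-Tt. All of them rest on the 3 heterozygous ΔPG ES samples.

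The ES genotype difference had the opposite direction in the 2 lines for 12 genes, with every homozygous ΔPG sample above and every homozygous ΔG sample below its heterozygous counterparts. Over all genes, the groups did not overlap for 39.6% in ΔPG ES cells (either direction), and 9.0% lay below in ΔG ES cells. The share of all genes with both was not counted. In ΔG cells mt-Nd1, mt-Nd2 and mt-Atp8 did not pass the adjusted p limit of 0.1 (limma adjusted p = 0.119, 0.244 and 0.195). The difference between the lines was not tested, since the tables were normalized apart. The ΔG values were -0.29 for mt-Rnr1 and -0.31 for mt-Rnr2, then -0.076 for mt-Nd1, -0.082 for mt-Nd2, -0.14 for mt-Nd4, -0.36 for mt-Nd5 and -0.34 for mt-Nd6, then -0.19 for mt-Co1, -0.22 for mt-Co2, -0.24 for mt-Co3 and -0.15 for mt-Cytb, and -0.31 for mt-Atp8.

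The RA effect in heterozygous cells likewise had opposite directions in the 2 lines for 11 genes, upwards in ΔPG and downwards in ΔG cells in every sample, and this difference was not tested either. Over all genes, ES and RA samples did not overlap in either direction for 56.1% in heterozygous ΔPG and 54.5% in heterozygous ΔG cells. The share of all genes with opposite directions was not counted. After removal of the GC trend the directions were no longer opposite for 5 of the 11: mt-Rnr1 (0.11), mt-Nd3 (0.19), mt-Nd4 (0.10) and mt-Atp8 (0.14) turned upwards in ΔG cells and mt-Nd6 (-0.076) downwards in ΔPG cells, while mt-Rnr2 was at -0.023 in ΔG cells. The ΔG values were -0.20 for mt-Rnr1 and -0.34 for mt-Rnr2, then -0.34 for mt-Nd1, -0.23 for mt-Nd3, -0.21 for mt-Nd4, -0.42 for mt-Nd5 and -0.64 for mt-Nd6, then -0.61 for mt-Co1, -0.36 for mt-Co2 and -0.55 for mt-Co3, and -0.31 for mt-Atp8.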

How the results depend on the processing

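Counts of called members within 1.5 times the values above are not repeated. With the adjusted p alone, 3 members were called between genotypes in RA-treated ΔPG cells, 9 and 10 in ES and RA-treated ΔG cells, 17 for RA in homozygous ΔPG, 14 and 12 for RA in heterozygous and homozygous ΔG cells, and 6 in the ΔG interaction (over all genes 4.58%, 5.22%, 11.0%, 52.0%, 54.5%, 53.4% and 5.28% passed in either direction). With the GC trend removed, 3 were called for RA in homozygous ΔPG and 5 in homozygous ΔG cells (4 higher), and in heterozygous ΔG cells the calls went from 3 lower to 2 higher. Over all genes tested that way, 2295 of 11914 were called lower in homozygous ΔPG cells. In ΔG cells 2945 of 12006 were called higher in homozygous and 2890 in heterozygous cells. With the length trend removed, 8 and 9 were called for RA in heterozygous and homozygous ΔG cells, 7 and 8 of them higher, and for RA in homozygous ΔPG cells 7 were higher and 1 lower. Over all genes, 2882 and 2902 of 12006 were then called higher in heterozygous and homozygous ΔG cells, and 2679 of 11914 in homozygous ΔPG cells. Quantile normalization gave 1 member between genotypes in RA-treated ΔPG cells, and sets mt-Rnr2 to 0.00 by construction, since it ranks first in every sample.

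Called values that changed sign with the GC trend removed were mt-Tt (-0.46) in ΔPG ES cells, mt-Nd6 (-0.076) for RA in heterozygous ΔPG cells, and mt-Atp6 (0.059), mt-Tq (0.17) and mt-Tt (0.30) in the ΔPG interaction. With the length trend removed these were mt-Tt (-0.10) in ΔPG ES cells and, for RA in homozygous ΔPG cells, mt-Nd3 (0.024) and mt-Tp (0.23). The cause was not tested. Of 1062 alternative values of called genes, 989 kept their direction and side of the threshold, 60 lost the call and 13 changed sign. Values of named genes that were not called changed sign more often: 25 of 112 did with the GC trend removed, 24 with the length trend removed and 19 with quantile normalization, and over all alternatives 24 for RA in heterozygous and 29 in homozygous ΔG cells.

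The replicate numbers do not pair the samples: over 24 pairs the correlation of same-numbered samples was -0.026 to 0.085. With a replicate block 16 members were called in ΔPG ES cells, as without it, and with block and GC trend removed 3 and 5 for RA in homozygous ΔPG and ΔG cells.

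Leaving out 1 sample at a time, the count for genotype in RA-treated ΔG cells ranged from 0 to 1 (1 without homozygous RA replicate 2 or heterozygous RA replicate 3) and that for RA in homozygous ΔG cells from 2 to 4 (4 without homozygous RA replicate 2). It ranged from 15 to 17 in ΔPG ES cells and from 6 to 10 for RA in homozygous ΔPG cells. No comparison of heterozygous ΔPG ES cells can be made without its 3 samples, and the depth is unknown.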
